A study of Mus musculus with 3 samples.

Results

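The genes described here are the basement membrane and network collagens of the mouse fracture callus: *Col4a1*, *Col4a2*, *Col4a5*, *Col15a1*, *Col18a1*, *Col6a1*, *Col6a2*, *Col6a3*, *Col8a1*, and *Col8a2*. They are 10 of the 32285 genes in the count matrices and were taken by symbol, each of which matched 1 gene. Cells came from the callus of untreated C57BL/6 mice with a femoral fracture, at day 7, day 10, and day 14 after fracture, with 1 single-cell RNA library per day. Per the labels and the study's methods the cells were digested with collagenase and sorted against CD45, CD31, and TER119, which removes blood and endothelial cells. The number and age of the mice behind each library are not given in the sources used here.

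A basement membrane is a thin sheet of matrix on which endothelial, epithelial, muscle, and fat cells rest, and into which pericytes are embedded together with the endothelium of small vessels. Type IV collagen forms its network, laminin forms a second network, and nidogen and perlecan join them. Collagens XV and XVIII are proteoglycans of the basement membrane zone, collagen VI forms beaded microfilaments around many cells, and collagen VIII is a short chain collagen that assembles into hexagonal networks under endothelium and in vessel walls.

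Levels were read in 5 groups of cells, each gated on a single gene. *Rgs5*-high cells each carried at least 1000 CPM of *Rgs5*, a pericyte marker. For a gate, CPM is the UMIs of a gene per 1000000 UMIs of the single cell. For the level of a group, it is per 1000000 UMIs of the group. The other gates required no UMI of *Ptprc*, which encodes CD45. They were *Aspn*-high cells (at least 2000 CPM of a gene of the *Postn*+ osteoprogenitors), *Cnmd*-high cells (2000 CPM of a chondrocyte gene), *Col10a1*-high cells (10000 CPM of the hypertrophic cartilage collagen), and *Ifitm5*-high cells (500 CPM of an osteoblast gene). The *Rgs5* gate held 73 cells at day 10 and 199 at day 14, and the other gates held 111 to 3072 cells in these libraries. At day 7 no cell passed the *Rgs5* gate, and only the *Cnmd* gate, with 46 cells, reached the 20 cells set as a minimum for printing levels.

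The libraries differed in make-up. Although all were labelled as mesenchymal cells, 93.6% of the 7017 cells within the study's limits at day 7 had a *Ptprc* UMI, against 0.0910% of 6593 at day 10 and 1.76% of 9853 at day 14. Median UMIs per cell within the limits were 5056, 17370, and 15802, and 13 to 26 cell barcodes were shared by each pair of libraries. With 1 library per day and no replicates, no test was possible, and every interval given is a 95% interval that covers counting error only.

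Marker lists were summed in each gate, at day 10 and day 14. Those of *Postn*+ osteoprogenitors were the largest in *Aspn*-high cells (8786 and 7420 CPM) and those of chondrocytes in *Cnmd*-high cells (54366 and 47694 CPM). *Col10a1*-high cells had hypertrophic markers at 27795 and 33634 CPM, chondrocyte markers at 30114 and 23625, and osteoblast markers at 27151 and 19633. *Ifitm5*-high cells had osteoblast markers at 77606 and 68970 CPM beside hypertrophic markers at 11200 and 16460 CPM. All 8 further pericyte markers were detected in *Rgs5*-high cells, summing to 2686 CPM at day 10 and 2602 at day 14, against 168 to 398 CPM in the other gates. *Mcam* stood at 379 and 280 CPM and *Notch3* at 377 and 402 CPM. *Cspg4*, on the same list, did not reach 2 times the mean of the 4 other gates in both libraries. In the *Cnmd*-high cells of day 7 the list summed to 782 CPM, with *Notch3*, *Kcnj8*, *Abcc9*, *Higd1b*, and *Des* without a UMI. Smooth muscle markers were also high in these cells, at 6927 and 6596 CPM, led by *Acta2* (4571 and 4068 CPM). Whether the pericyte and smooth muscle markers were in the same cells was not tested. Of 8 endothelial markers, *Cdh5*, *Kdr*, *Tek*, and *Cldn5* had no UMI in *Rgs5*-high cells on either day. *Pecam1* was at 3.13 and 7.04 CPM, *Emcn* at 53.2 and 29.6 CPM, and *Esam* at 116 and 149 CPM, and the list summed to 175 and 192.5 CPM against 2.13 to 7.35 CPM in the other gates.

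**Figure D1:**
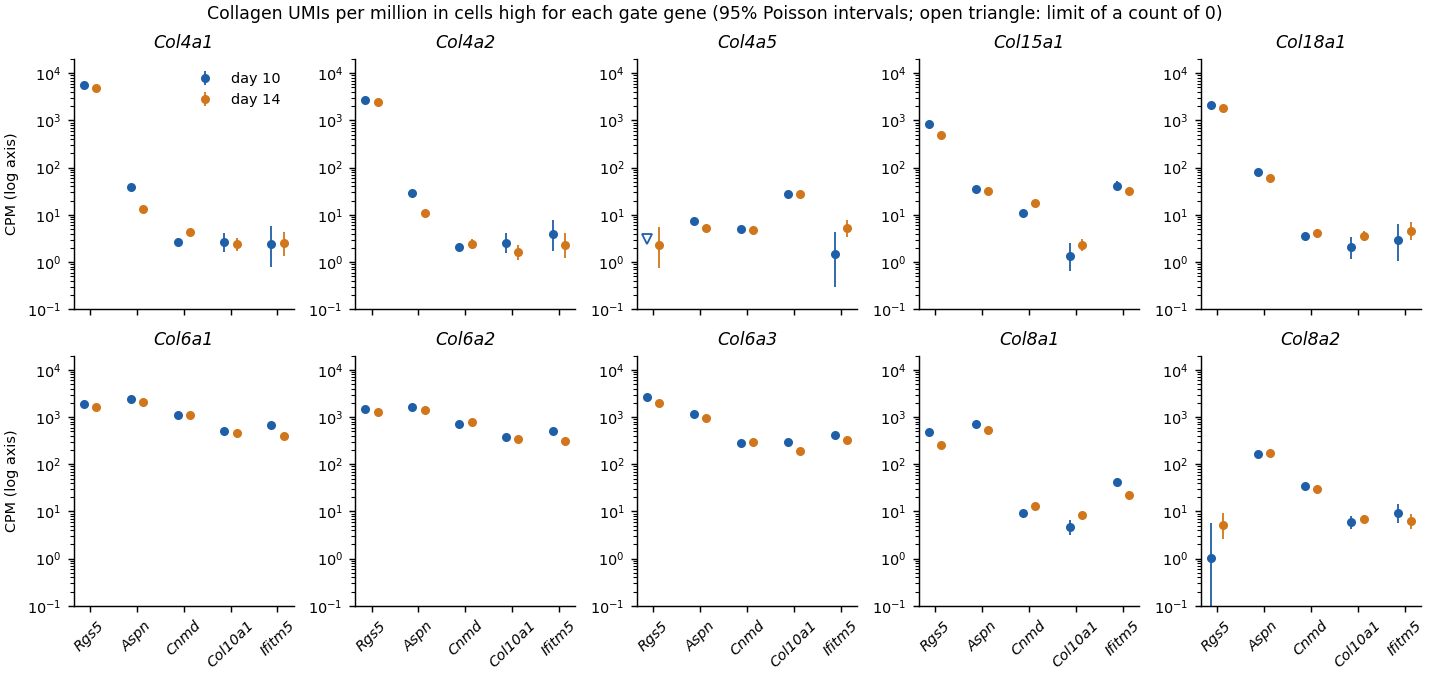
Level of each collagen gene (CPM, log axis) in cells high for *Rgs5*, *Aspn*, *Cnmd*, *Col10a1*, or *Ifitm5* at day 10 (blue) and day 14 (orange). Points are UMIs summed over the cells of a gate, bars are 95% Poisson intervals, and the open triangle is the limit that a count of 0 allows. *Col4a1*, *Col4a2*, *Col15a1*, and *Col18a1* stand highest in *Rgs5*-high cells on both days, *Col8a2* stands highest in *Aspn*-high cells, and *Col4a5* in *Col10a1*-high cells.

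Of the 10 genes, 9 had a mean of at least 10 CPM over the gates in both libraries and were compared between gates. A gene was called higher in a gate when its CPM was at least 2 times the mean of the 4 other gates in both the day 10 and the day 14 library. For *Rgs5*-high cells 5 were called higher (*Col4a1*, *Col4a2*, *Col15a1*, *Col18a1*, and *Col6a3*), against 9.12% of the 7398 genes compared. The minimum counts the *Rgs5*-high level itself, and at day 14 *Col4a1* and *Col4a2* passed it only through that gate, with means of 5.66 and 4.33 CPM over the 4 other gates, as did *Col4a2* at day 10 with 9.42 CPM. Without the minimum the same 5 of all 10 members were called higher, against 9.71% of 20048 genes. The *Aspn*-high cells had 4 called higher (*Col6a1*, *Col6a2*, *Col8a1*, and *Col8a2*), against 4.77% of genes, so each of the 9 was called in 1 of these 2 gates. No member was called higher in *Cnmd*-high, *Col10a1*-high, or *Ifitm5*-high cells, where 2.91%, 3.92%, and 2.46% of genes were. Calls in the lower direction rest on a mean that includes the gate where a gene is highest. They were made for *Col8a2* in *Rgs5*-high cells (8.15% of genes), for *Col4a1*, *Col4a2*, *Col15a1*, and *Col18a1* in *Aspn*-high cells (5.60%), for 6 members in *Cnmd*-high cells (11.3%), and for all 9 in *Col10a1*-high (12.5%) and *Ifitm5*-high cells (12.2%).

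**Figure D2:**
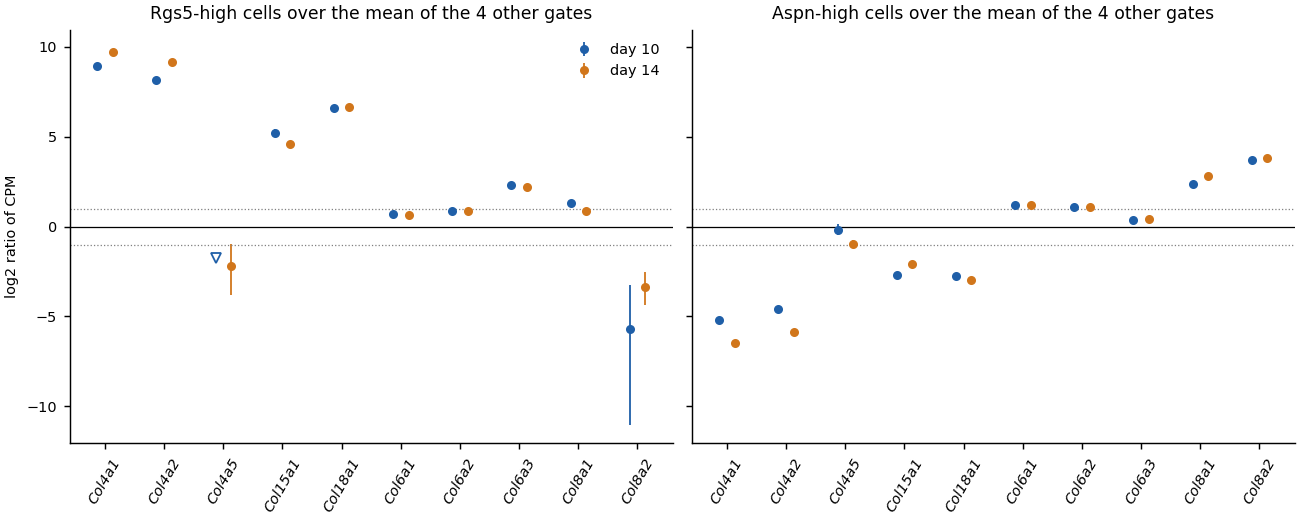
Log2 ratio of CPM in *Rgs5*-high cells (left) and *Aspn*-high cells (right) over the mean of the 4 other gates, at day 10 (blue) and day 14 (orange), with 95% intervals for counting error. Dotted lines mark the 2-fold limits, and the open triangle is the bound set by a count of 0. In *Rgs5*-high cells the points run from 9.74 for *Col4a1* at day 14 to -5.70 for *Col8a2* at day 10.

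The *Col4a1* and *Col4a2* genes encode the chains of the common type IV collagen molecule. *Col4a1* in *Rgs5*-high cells was at 5536 CPM at day 10 (interval 5388 to 5687) and at 4848 CPM at day 14 (4755 to 4943). In *Aspn*-high cells it was at 38.1 and 13.4 CPM, and in the *Cnmd*-high, *Col10a1*-high, and *Ifitm5*-high cells it lay between 2.40 and 4.29 CPM. *Rgs5*-high cells were thus far above every other gate on both days, with no overlap of the intervals. Endothelial cells could not be compared. Of the ungated cells without *Ptprc*, 0 on either day had at least 5 UMIs and 1000 CPM of *Pecam1*, *Cdh5*, *Kdr*, and *Emcn* together. The ratio over the mean of the other gates was 482-fold at day 10 (442.5 to 525) and 857-fold at day 14 (782 to 942), rank 10 and rank 6 among the 7398 genes. *Col4a2* followed the same order of gates at its top, at 2734 and 2496 CPM in *Rgs5*-high cells and 29.1 and 10.9 CPM in *Aspn*-high cells, with ratios of 290-fold and 576-fold.

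Cells with at least 2 *Ptprc* UMIs served as a background, since blood cells should lack these chains. At day 14, in 111 such cells, *Col4a1* was at 5.54 CPM (2.23 to 11.4) and *Col4a2* at 8.70 CPM (4.34 to 15.6). These background cells were uneven: their UMIs of *Col4a1* came from 6 cells and those of *Col4a2* from 5, the median cell had 0 CPM of every member, and markers of hypertrophic chondrocytes summed to 8894 CPM and those of chondrocytes to 4357 CPM in them. The day 14 background is therefore given as an upper value. The levels of both genes in the *Cnmd*-high, *Col10a1*-high, and *Ifitm5*-high cells of that library were below these values and are not read as expression, with no order among these gates. At day 14 *Col4a1* in *Aspn*-high cells lay above the background interval and *Col4a2* lay within it. The background cells of day 10 were only 4, too few to give a limit, and in the 6284 such cells of day 7 *Col4a1* was at 0.562 CPM.

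Nearly every *Rgs5*-high cell carried the type IV chains. All 73 cells at day 10 and all 199 at day 14 had a UMI of *Col4a1* and of *Col4a2*, and the level of *Col4a1* in single cells ran from 1612 to 10029 CPM with a median of 5479 at day 10, and from 256 to 15249 CPM with a median of 4491 at day 14. After each cell was thinned to 2000 UMIs, so that depth did not enter, 100% of 72 cells at day 10 and 99.5% of 196 at day 14 had a *Col4a1* UMI, and 95.8% and 95.9% had a *Col4a2* UMI. In thinned background cells of day 14 the shares were 2.78% and 0%, the latter 0 of 108 cells, which allows up to 3.36% by its Clopper-Pearson interval. Before thinning, the median *Rgs5*-high cell had 12514 UMIs at day 10 and 9219 at day 14, and the median background cell had 8071 at day 14.

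*Aspn*-high cells showed another distribution. Only 5.95% of thinned cells at day 10 and 2.29% at day 14 had a *Col4a1* UMI, and the 5% of cells with the highest counts held 78.4% and 89.2% of all *Col4a1* UMIs of the gate, against 11.5% and 16.2% in *Rgs5*-high cells. The UMIs of *Col4a1* per UMI of *Rgs5* were 19.4 (14.05 to 27.5) and 4.57 (3.77 to 5.58) in *Aspn*-high cells and 0.583 and 0.461 in *Rgs5*-high cells. These ratios differ in part by construction, since a cell with much *Rgs5* is left out of the *Aspn* gate.

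*Col4a1* and *Col4a2* lie head to head on chromosome 8, *Col4a1* at 11198423 to 11312826 on the minus strand and *Col4a2* at 11312805 to 11449287 on the plus strand (GRCm38). Their start sites are 21 bases apart and the first exons overlap by 22 bases on opposite strands. The stretch is shown because both genes stood out in the same cells. It is given from the RefSeq promoter windows of GRCm38.p6 on the plus strand, chr8:11312801-11312830, with the 22 bases transcribed from both genes in capitals.
Col4a1 and Col4a2 start sites: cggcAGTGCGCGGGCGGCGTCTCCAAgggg
The levels of the pair had a Pearson correlation of 1.000 on the log2(CPM + 10) scale over the 10 profiles of 5 gates and 2 days, profiles that share their libraries. The capitals hold the letters GGGCGG, the core of a GC box. These letters, or their reverse complement, were in 8 of the 12 RefSeq windows of the 10 collagen genes, against 35.6% of all 32817 windows. A window ran from 250 bases before to 50 after a start site. CCAAT was in 4 of 12 against 37.4%, and TATAAA was in 0 of 12 against 13.6%. The windows are not separate: those of *Col4a1* and *Col4a2* overlap and both count the match in the capitals, and those of *Col6a2* overlap as well.

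The chain ratio differed between gates. There were in *Rgs5*-high cells 2.03 UMIs of *Col4a1* per UMI of *Col4a2* at day 10 (1.93 to 2.12) and 1.94 at day 14 (1.88 to 2.01). In *Aspn*-high cells the ratio was 1.31 (1.18 to 1.47) and 1.23 (1.09 to 1.39), below that of *Rgs5*-high cells on both days with no overlap of the intervals. Reads of this assay come from the 3′ end of each mRNA, so the ratio is compared between gates and is not read as a ratio of molecules.

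*Col4a5*, on the X chromosome at 141475385 to 141689234, encodes a minor type IV chain that assembles with other partners, and its highest gate was another one. It was highest in *Col10a1*-high cells, with 27.2 CPM at day 10 (23.6 to 31.2) and a day 14 level of 27.8 CPM (25.5 to 30.3). In *Aspn*-high cells it was at 7.47 and 5.14 CPM, in *Cnmd*-high cells at 5.07 and 4.69 CPM, and in *Ifitm5*-high cells at 1.46 and 5.23 CPM. *Rgs5*-high cells, the highest in *Col4a1*, had 0 UMIs at day 10, which allows up to 3.13 CPM, and 2.35 CPM at day 14. At day 10 their ratio over the mean of the other gates had an interval of 0 to 0.376. The ratio over *Ifitm5*-high cells alone had an interval of 0 to 5.17.

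The excess of *Col4a5* in *Col10a1*-high cells was 7.77-fold over the mean of the other gates at day 10 (6.29 to 9.62) and 6.40-fold at day 14 (5.26 to 7.84). The gene missed the 10 CPM minimum and was therefore not among the 9 compared. Only 4.05% (2.38 to 6.40) and 5.19% (3.93 to 6.70) of thinned *Col10a1*-high cells had a UMI, against 0.864% and 0.699% of *Cnmd*-high cells. At day 14 the background cells had 13.4 CPM (7.83 to 21.5), below the *Col10a1*-high level and above all the other gates. Those 17 UMIs came from 6 of 111 cells, 0 of 108 thinned background cells had a UMI, and the 6284 background cells of day 7 had 0.270 CPM, so no order is read among the other gates. *Col4a6*, the partner that starts 1309 bases away on the opposite strand, was also highest in *Col10a1*-high cells, at 1.63 and 2.98 CPM against at most 0.4695 CPM in the other gates, although its 0 UMIs in *Rgs5*-high cells at day 10 allow up to 3.13 CPM.

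*Col18a1* and *Col15a1* encode the multiplexin collagens, whose cleaved ends include endostatin. *Col18a1* was at 2129 CPM (2038 to 2223) and 1880 CPM (1823 to 1939) in *Rgs5*-high cells. *Aspn*-high cells had 80.5 and 61.3 CPM, and the 3 remaining gates had 2.04 to 4.65 CPM, at or below the 17.4 CPM of the background cells of day 14. *Rgs5*-high cells stood 95.7-fold (89.3 to 103) and 102.1-fold (96.7 to 107.7) above the mean of the other gates, and 93.1% and 93.9% of them had a UMI after thinning, against 11.4% and 9.79% of *Aspn*-high cells.

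*Col15a1* was at 831 CPM (774 to 890.5) and 499 CPM (469 to 529.5) in *Rgs5*-high cells. Its next gates were *Ifitm5*-high cells at 41.5 and 31.4 CPM and *Aspn*-high cells at 34.9 and 32.3 CPM, and the interval of the *Aspn*-high over the *Ifitm5*-high level held 1 on both days (0.670 to 1.065 and 0.876 to 1.22). *Cnmd*-high cells had 11.1 and 17.6 CPM, the latter within the background interval of day 14 (11.9 CPM, 6.64 to 19.6), and *Col10a1*-high cells had 1.36 and 2.34 CPM. *Rgs5*-high cells were 37.4-fold (32.9 to 42.5) and 23.9-fold (21.8 to 26.1) above the mean of the other gates.

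The 2 multiplexins were thus not ordered alike below their common peak. *Ifitm5*-high cells had 0.0706 UMIs of *Col18a1* per UMI of *Col15a1* at day 10 (0.0252 to 0.160) and 0.148 at day 14 (0.0922 to 0.228). *Rgs5*-high cells had 2.56 (2.36 to 2.79) and 3.77 (3.52 to 4.04). After thinning, 6.31% and 3.72% of *Ifitm5*-high cells had a *Col15a1* UMI, against 0.926% of background cells at day 14, whose interval reached 5.05%.

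*Col6a1*, *Col6a2*, and *Col6a3* encode the chains that form the common collagen VI molecule, with *Col6a3* adding the longest chain. *Col6a1* was at 2370 and 2112 CPM in *Aspn*-high cells, 1894 and 1630 CPM in *Rgs5*-high cells, 1105 and 1125 CPM in *Cnmd*-high cells, 509 and 472 CPM in *Col10a1*-high cells, and 670 and 397 CPM in *Ifitm5*-high cells. *Col6a2* had the same order on each day, from 1662 and 1445 CPM in *Aspn*-high cells to 381 CPM in *Col10a1*-high cells at day 10 and 310 CPM in *Ifitm5*-high cells at day 14. Both were spread over all gates, with the highest gate 4.66-fold and 5.33-fold above the lowest for *Col6a1*. The spread for *Col4a1* was 2268-fold (971 to 6987) and 2024-fold (1512 to 2777). Its lowest level rested on 5 UMIs in *Ifitm5*-high cells at day 10. At day 14 it was the *Col10a1*-high level, below that of the background cells, so this spread is not read as an exact value.

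The calls of *Col6a1* and *Col6a2* in *Aspn*-high cells lay just inside the 2-fold limit, at 2.27-fold and 2.33-fold for *Col6a1* and 2.15-fold and 2.10-fold for *Col6a2*. In *Rgs5*-high cells they lay just outside it, at 1.63-fold and 1.59-fold and at 1.85-fold and 1.80-fold. Under DESeq2 size factors the calls of both genes in *Aspn*-high cells were lost, leaving 2 members there, against 3.38% of genes. At day 14 the *Ifitm5*-high levels of *Col6a1* and *Col6a2* lay within the intervals of the background cells, at 395 CPM (361 to 431) and 303 CPM (273 to 335). The distributions differed: 6 of the 111 background cells held 62.1% and 63.7% of these UMIs and the median background cell had 0 CPM, while the median *Ifitm5*-high cell had 196 and 122 CPM. In the background cells of day 7 the genes were at 21.8 and 20.2 CPM.

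*Col6a3* had another order. It was highest in *Rgs5*-high cells, at 2643 CPM (2542 to 2748) and 2006 CPM (1946 to 2067), followed by *Aspn*-high cells at 1169 and 952 CPM. *Ifitm5*-high cells had 417.5 and 334 CPM, *Cnmd*-high cells 281 and 297 CPM, and *Col10a1*-high cells 297 and 188 CPM. The excess in *Rgs5*-high cells was 4.88-fold (4.68 to 5.09) and 4.53-fold (4.38 to 4.68) over the mean of the other gates.

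The make-up of the collagen VI UMIs therefore differed by gate, while *Col6a1* and *Col6a2* kept nearly the same proportion. Per UMI of *Col6a1*, *Rgs5*-high cells had 1.40 UMIs of *Col6a3* at day 10 (1.31 to 1.48) and 1.23 at day 14 (1.18 to 1.29). *Ifitm5*-high cells had 0.623 and 0.843, *Col10a1*-high cells 0.584 and 0.399, and *Aspn*-high cells 0.493 and 0.451. *Cnmd*-high cells had 0.255 (0.250 to 0.260) and 0.264 (0.258 to 0.271). The ratio of *Col6a1* to *Col6a2* stayed between 1.25 and 1.55 in all 5 gates on both days. The 2 genes are neighbors on chromosome 10 on the minus strand (*Col6a1* at 76708792 to 76726168 and *Col6a2* at 76595762 to 76623630), with starts 102538 bases apart, whereas *Col6a3* lies on chromosome 1 at 90765923 to 90843971. The correlation of *Col6a1* and *Col6a2* over the 10 profiles was 0.995.

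**Figure D3:**
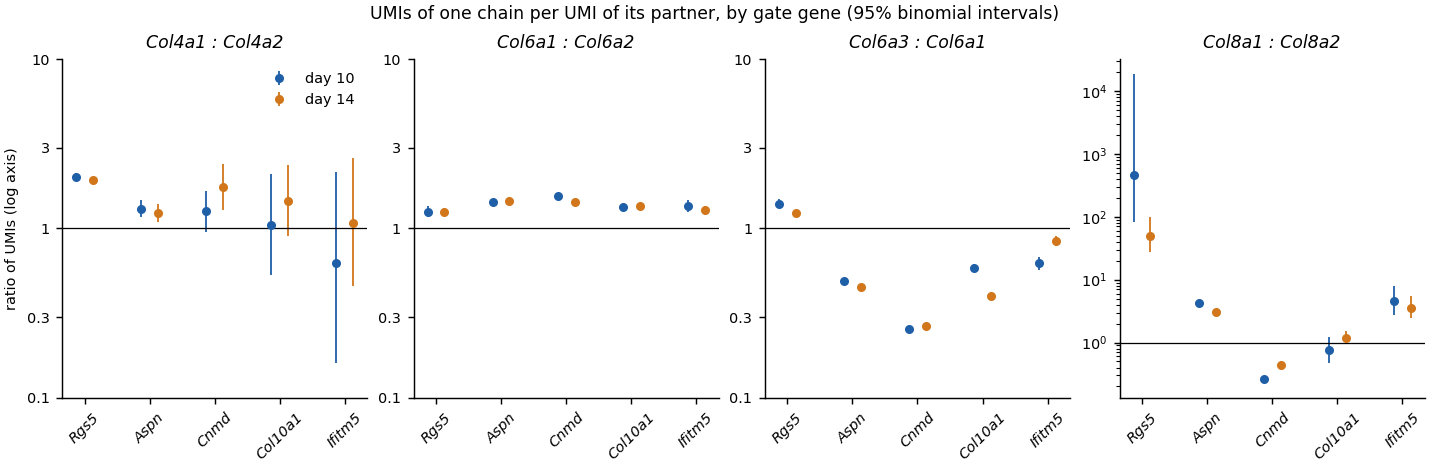
UMIs of one chain per UMI of its partner (log axes) in each gate at day 10 (blue) and day 14 (orange), with 95% binomial intervals for counting error. The first 3 panels share their axis limits. *Col6a1* to *Col6a2* lies between 1.25 and 1.55 in all gates, while *Col6a3* to *Col6a1* is highest in *Rgs5*-high cells and *Col8a1* to *Col8a2* is lowest in *Cnmd*-high cells on both days.

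*Col8a1* and *Col8a2* encode the chains of collagen VIII, and they separated between gates. *Col8a1* was at 704 and 526 CPM in *Aspn*-high cells and at 482 CPM (439 to 528) and 256 CPM (235 to 278) in *Rgs5*-high cells. In *Ifitm5*-high cells it was at 42.5 and 22.3 CPM, and in the *Cnmd*-high and *Col10a1*-high cells between 4.62 and 13.4 CPM. The background cells had 37.2 CPM at day 14, of which 91.5% came from 6 of 111 cells, and 2.95 CPM at day 7. *Aspn*-high and *Rgs5*-high cells stood above both values.

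*Col8a2* shared the peak in *Aspn*-high cells, at 167 and 170.5 CPM, but not the level in *Rgs5*-high cells, where it had 1 UMI at day 10 (1.04 CPM, 0.0264 to 5.82) and 11 UMIs at day 14 (5.16 CPM, 2.58 to 9.24). *Cnmd*-high cells had 35.1 and 30.1 CPM. The day 14 value lay within the interval of the background cells of that library (22.9 CPM, 15.4 to 32.9), in which chondrocyte markers were also found. At day 7 *Cnmd*-high cells had 31.1 CPM and the background cells 0.374 CPM. The *Col8a2* level in *Aspn*-high cells was 12.97-fold (11.6 to 14.5) and 14.1-fold (12.8 to 15.5) above the mean of the other gates, and that of *Col8a1* was 5.23-fold and 7.01-fold.

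For *Rgs5*-high cells 462 UMIs of *Col8a1* stood beside the single UMI of *Col8a2* at day 10, and 545 beside 11 at day 14. In *Aspn*-high cells the ratio was 4.22 (4.06 to 4.38) and 3.08 (3.00 to 3.17), and in *Cnmd*-high cells it was lower than in both, at 0.259 (0.232 to 0.289) and 0.445 (0.393 to 0.504). No *Rgs5*-high cell had a *Col8a2* UMI after thinning, so none could have both chains. A UMI of *Col8a1* was in 36 of 72 of these cells at day 10 and 68 of 196 at day 14. Both chains were in 17.4% and 15.7% of thinned *Aspn*-high cells. The correlation of the chains over the 10 profiles was 0.437. *Col8a1* itself was 2.54-fold (2.31 to 2.79) and 1.80-fold (1.65 to 1.96) above the mean of the other gates in *Rgs5*-high cells, past the limit in the day 10 library only.

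The bases before the start sites of the collagen VIII genes are shown because these partners of one molecule separated in *Rgs5*-high cells. *Col8a1* lies on chromosome 16 at 57624258 to 57754737 on the minus strand, and the bases are chr16:57754738-57754987. *Col8a2* lies on chromosome 4 at 126286793 to 126314330 on the plus strand, and the bases are chr4:126286544-126286792. Both come from the RefSeq windows of GRCm38.p6, are written on the strand of the gene, and end just before the annotated first base, with GGGCGG or its reverse complement CCGCCC in capitals.
Col8a1: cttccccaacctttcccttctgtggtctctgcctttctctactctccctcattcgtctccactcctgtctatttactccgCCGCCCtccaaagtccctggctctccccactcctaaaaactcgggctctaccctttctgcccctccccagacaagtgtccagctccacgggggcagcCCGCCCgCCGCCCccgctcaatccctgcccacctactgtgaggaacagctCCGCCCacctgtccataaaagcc
Col8a2: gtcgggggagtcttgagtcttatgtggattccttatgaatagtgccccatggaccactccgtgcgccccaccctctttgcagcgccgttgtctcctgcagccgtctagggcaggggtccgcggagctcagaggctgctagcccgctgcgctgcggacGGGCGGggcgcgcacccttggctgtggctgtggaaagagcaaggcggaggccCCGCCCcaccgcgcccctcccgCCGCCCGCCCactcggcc
Each stretch held these letters 4 times, the last 2 matches of *Col8a2* sharing bases, and neither held CCAAT or TATAAA, so the 3 motifs searched did not tell them apart.

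**Figure D4:**
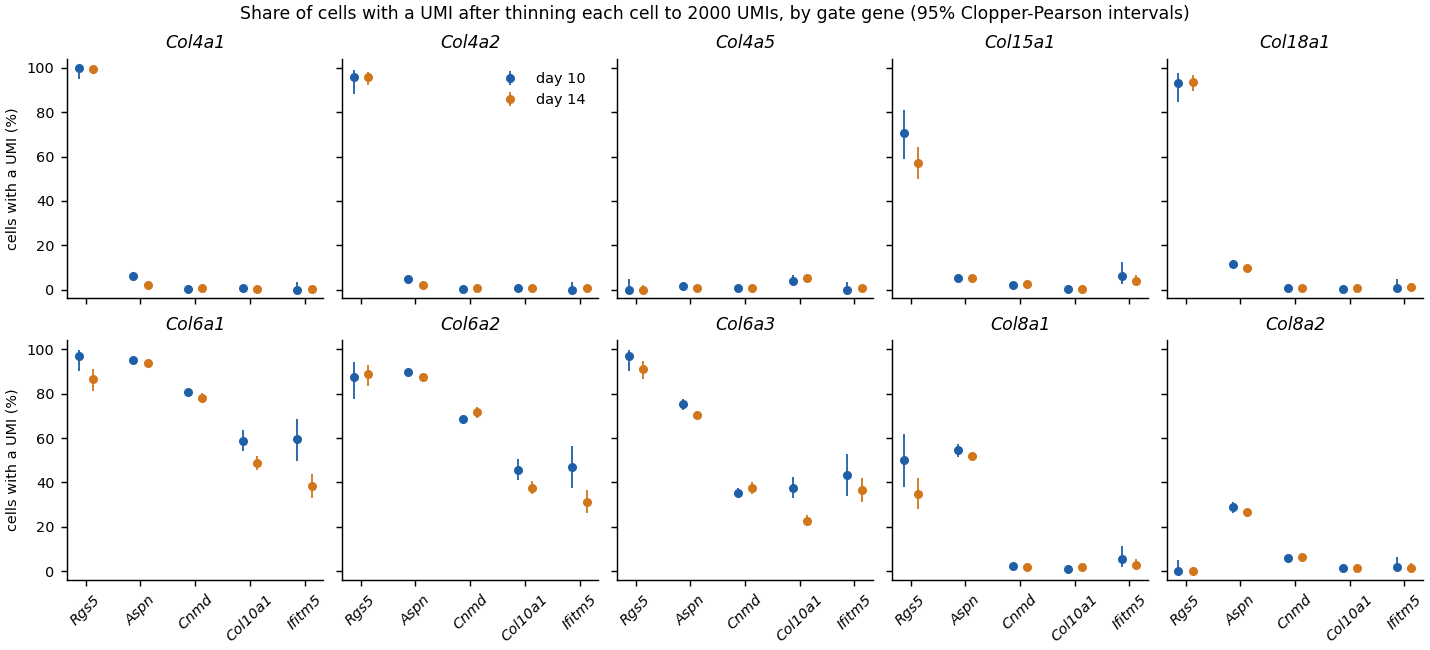
Share of cells with a UMI of each collagen gene after every cell was thinned to 2000 UMIs, in each gate at day 10 (blue) and day 14 (orange), with 95% Clopper-Pearson intervals. *Col4a1*, *Col4a2*, and *Col18a1* were in over 93% of *Rgs5*-high cells and in under 12% of cells of the other gates, *Col6a1* was in 38.4% to 97.2% of cells of every gate, and *Col8a2* was in 0% of *Rgs5*-high cells.

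Day 10 and day 14 were compared within each gate. Of the 50 pairs of a collagen gene and a gate, 32 had a mean of at least 10 CPM over both days. Of these, 9 differed by at least 1.5-fold with an interval that left out 1, and 8 were lower and 1 was higher at day 14. Over all genes compared in a gate, 2.59% to 5.63% were lower and 0.987% to 4.26% were higher, depending on the gate. The study labels give the days only, and a difference between these libraries cannot be told apart from a difference between animals or preparations.

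Within the *Rgs5* gate *Col15a1* (831 to 499 CPM, ratio 0.600, interval 0.547 to 0.659) and *Col8a1* (482 to 256 CPM, ratio 0.531, interval 0.468 to 0.602) were lower at day 14, as were 5.09% of the 7859 genes compared, and none was higher, as 4.26% of genes were. The other 6 compared in these cells had ratios of 0.759 to 0.913, led by *Col6a3* at the low end and *Col4a2* at the high end, beside a median log2 ratio of 0.00 over all genes. The share of thinned cells with *Col15a1* was 70.8% (58.9 to 81.0) and 57.1% (49.9 to 64.2), and that of *Col8a1* was 36 of 72 cells (38.0% to 62.0%) and 34.7% (28.05 to 41.8), so that the intervals of both overlapped between days.

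Markers of other cells moved with the day in *Rgs5*-high cells. Of 5 hematopoietic markers 2 were detected at day 10, summing to 2.09 CPM, and 4 at day 14, summing to 7519 CPM and led by *S100a8* and *S100a9* (3016 and 4161 CPM), with *Cd74* at 0 on both days. Osteoblast markers summed to 146 and 1258 CPM, those of hypertrophic chondrocytes to 505 and 2261 CPM, and those of chondrocytes to 487 and 1481 CPM. Markers of *Postn*+ osteoprogenitors were lower at day 14, at 2186 and 1211 CPM, the direction of *Col15a1* and *Col8a1*. Their part in the day differences was not tested. Without the 8 cells of day 14 that had a *Ptprc* UMI the ratios were 0.605 for *Col15a1* and 0.548 for *Col8a1*, and without cells that had a UMI of *Pecam1*, *Cdh5*, *Kdr*, or *Emcn* (25 of 73 and 52 of 199) they were 0.551 and 0.539.

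In *Aspn*-high cells the type IV chains were lower at day 14, *Col4a1* at 13.4 against 38.1 CPM (ratio 0.352, 0.316 to 0.393) and *Col4a2* at 10.9 against 29.1 CPM (ratio 0.375, 0.332 to 0.424), where 2.73% of genes were, and none was higher (0.987% of genes). The *Col4a2* level of day 14 lay within the background interval, as given above. These were the largest of the 9 differences and the only ones past 2-fold. Given the distribution over cells described above, the difference rested on few cells: 185 of 1315 cells at day 10 (14.1%) and 217 of 3072 at day 14 (7.06%) had a *Col4a1* UMI at all. All the other members of this gate lay between 0.747 and 1.02 for day 14 over day 10, apart from *Col4a5* at 0.689 with levels under 10 CPM.

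In *Cnmd*-high cells *Col15a1* was higher at day 14 (17.6 against 11.1 CPM, ratio 1.58, 1.39 to 1.79), where 1.26% of genes were (2.59% were lower). This call was lost without the upper limit of 5000 genes per cell (1.43 to 1.44) and after thinning (1.29). The day 14 level also lay within the background interval of that library, as given above. At day 7 the 46 *Cnmd*-high cells had 33.2 CPM of *Col15a1* (22.7 to 46.9), above both later days, and 1840 CPM of *Col6a1* (1755 to 1927), 1266 CPM of *Col6a2*, and 611 CPM of *Col6a3*. *Col4a1* had 1 UMI in these cells and *Col4a2* and *Col18a1* had 0. In *Col10a1*-high cells *Col6a3* was lower at day 14 (188 against 297 CPM, ratio 0.633, 0.600 to 0.668), as were 5.63% of genes (1.20% were higher), and this call was lost under TMM and DESeq2 factors.

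In *Ifitm5*-high cells *Col6a1* (ratio 0.592, 0.553 to 0.635), *Col6a2* (0.625, 0.578 to 0.677), and *Col8a1* (0.524, 0.393 to 0.700) were lower at day 14, as were 4.93% of genes (1.74% were higher). *Col6a3* had a ratio of 0.801 (0.737 to 0.870) there, so UMIs of *Col6a3* per UMI of *Col6a1* were 0.623 at day 10 and 0.843 at day 14, opposite in direction to the *Aspn*-high cells. The *Col8a1* level of this gate at day 14 was below that of the background cells of that library. Those of *Col6a1* and *Col6a2* lay within the background intervals, as given above.

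**Figure D5:**
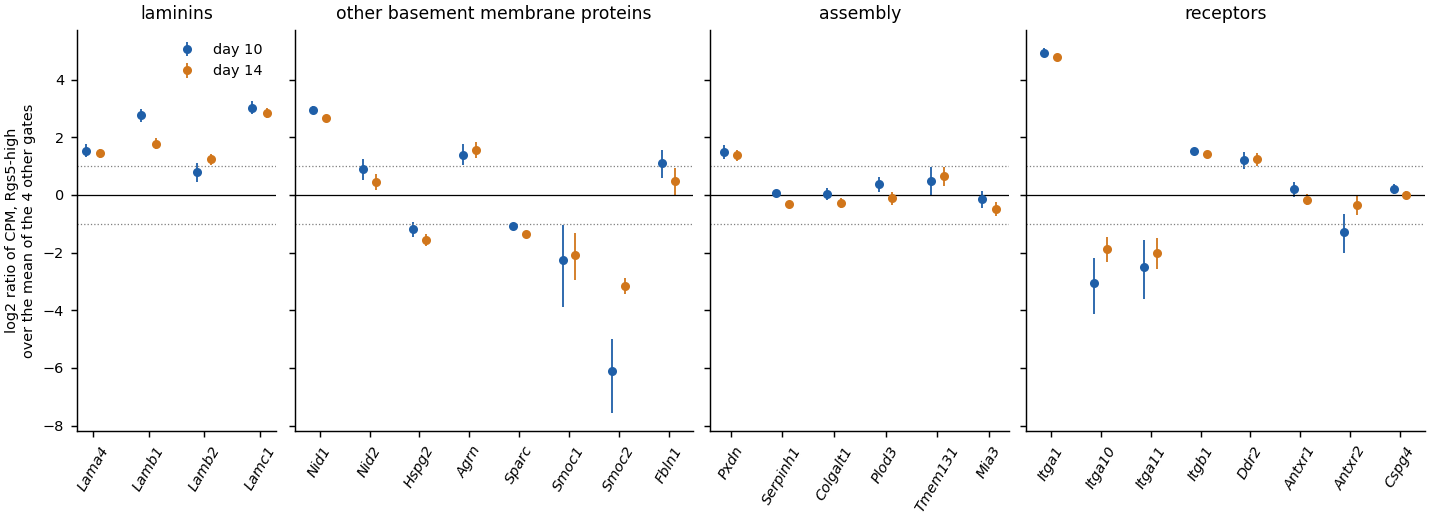
Log2 ratio of CPM in *Rgs5*-high cells over the mean of the 4 other gates for the laminins, other basement membrane proteins, assembly proteins, and receptors that had at least 10 CPM, at day 10 (blue) and day 14 (orange), with 95% intervals for counting error and dotted lines at 2-fold. *Itga1* stands highest, at 27.8-fold to 30.8-fold, and *Smoc2* lowest.

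The partners of these collagens were counted from lists of the other network chains, laminins, further basement membrane proteins, assembly proteins, and collagen receptors. Of 7 other network chains none reached 10 CPM. *Col6a4*, a chain that can replace *Col6a3*, was at 6.26 and 7.04 CPM in *Rgs5*-high cells and at most 0.0459 CPM in the other gates.

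Among 11 laminin genes 4 were compared and 3 were called higher in *Rgs5*-high cells, where 9.12% of all genes were (*Lama4*, *Lamb1*, and *Lamc1*), the chains of the laminin found in vessel basement membranes. *Lama4* was at 197 and 153.5 CPM (2.89-fold and 2.73-fold), *Lamb1* at 185 and 111 CPM (6.79-fold and 3.42-fold), and *Lamc1* at 200.4 and 169 CPM (8.16-fold and 7.22-fold). No laminin was called lower in these cells.

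Other basement membrane proteins were divided, with 2 of 8 called higher and 4 called lower, against 9.12% and 8.15% of all genes. Of these, *Nid1*, which links laminin to type IV collagen, was higher in *Rgs5*-high cells at 489.5 and 335 CPM (7.64-fold and 6.33-fold), as was *Agrn* (2.63-fold and 2.96-fold). *Hspg2*, which encodes perlecan, was lower, at 143 and 89.7 CPM (0.438-fold and 0.337-fold), and was highest in *Cnmd*-high cells at 534 and 417 CPM. *Sparc*, *Smoc1*, and *Smoc2* were also called lower. *Nid2*, the other nidogen, was called higher in *Cnmd*-high cells (84.5 and 105 CPM) together with *Hspg2* and *Smoc2*.

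Of 6 genes of collagen assembly only *Pxdn*, whose product crosslinks type IV collagen, was called higher in *Rgs5*-high cells (143 and 119 CPM, 2.80-fold and 2.59-fold), where 9.12% of all genes were, and it was also called in *Aspn*-high cells (129 and 130 CPM). *Serpinh1*, the collagen chaperone of the endoplasmic reticulum, was at 2568 and 1750 CPM in *Rgs5*-high cells, 1.06-fold and 0.794-fold. Among 10 receptors, 8 were compared, of which 3 were called higher and 2 lower, where 9.12% and 8.15% of all genes were. *Itga1*, the integrin chain that binds type IV collagen, was at 834 and 691 CPM (30.8-fold and 27.8-fold), and *Itgb1* and *Ddr2* were called higher as well. *Itga10* and *Itga11* were called lower in *Rgs5*-high cells, and *Itga11*, a receptor for fibrillar collagen, was highest in *Aspn*-high cells at 158 and 165 CPM.

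The genes with the most similar pattern were found by Pearson correlation on the log2(CPM + 10) scale over the 10 profiles, which share 2 libraries. For *Col4a1* they were *Slfn5* (0.998), *Cygb* (0.996), and *Nr2f2* (0.996), and the most similar member after *Col4a2* was *Col18a1* (0.979). For *Col15a1* they were *Gpc4* (0.985), *Mrpl52* (0.984), and *Adcy6* (0.980). For *Col6a1* they were *Slc39a6* (0.988), *Man2a1* (0.983), and *Mgat2* (0.982), and for *Col8a1* they were *Anxa2* (0.989), *Fhl1* (0.986), and *C1qtnf1* (0.983). A high correlation means a like shape over the profiles and not a like level or a like size of change. At day 10 *Mrpl52* was at 392 CPM in *Rgs5*-high and 150 CPM in *Col10a1*-high cells, where *Col15a1* was at 831 and 1.36 CPM.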

How the data were processed

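Single-cell RNA libraries of sorted callus cells at day 7, day 10, and day 14 (1 per day) were analysed. The authors deposited whole-number UMI counts per gene and cell, made with Cell Ranger (version 3.0 in the submitters' processing notes, 3.1.0 in the matrix headers) on mm10. Cells with 500 to 5000 genes, at most 10% mitochondrial UMIs, and at most 5% hemoglobin UMIs were kept, leaving 7017, 6593, and 9853 cells with 55187609, 113618580, and 154573230 UMIs. No doublet caller was run, and cells that passed more than 1 gate (1, 193, and 144) were left out. A gate required at least 5 UMIs of its gene.

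UMIs were summed per gate and day and scaled to CPM. Intervals were exact Poisson for levels, exact binomial for ratios, and Clopper-Pearson for shares, at 95%, and cover counting error only. A count of 0 was taken to allow up to 3 UMIs. With 1 library per day there was no test between days or gates. Ratios of UMIs between genes were compared across gates only, since UMIs come from the 3′ end of each mRNA. The genes named are the 10 collagens, the gate genes, and marker and partner lists as counts with examples. Named as well are the 3 genes most correlated with each of *Col4a1*, *Col15a1*, *Col6a1*, and *Col8a1*. The members, gates, and lists were chosen with earlier results of these data known. The alternatives were 14 settings, among them TMM (edgeR 4.0.16) and DESeq2 1.42.0 factors. Python 3.11.15, numpy 2.4.6, scipy 1.17.1, pandas 2.3.3, matplotlib 3.10.9, and R 4.3.3 were used, and the calculations were tested on simulated data. Positions are those of GRCm38, and promoter sequences are from RefSeq, where all 10 genes matched.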

Additional observations from a re-analysis of the deposited data

How the results depend on the processing

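Under 14 alternatives the 6 counts of called members gave 84 values, of which 80 equalled or stayed within 1.5 times the main count and 4 did not. The counts for *Cnmd*-high, *Col10a1*-high, and *Ifitm5*-high cells were 0 in the main setting, and 0 against 0 was taken as the same. A count can also stay the same while the members called change. The 4 members called higher in *Aspn*-high cells became 2 with DESeq2 size factors, where *Col6a1* and *Col6a2* were lost and 3.38% of 7367 genes were called. With a limit of 1.5-fold between gates, 8 members were higher in *Rgs5*-high cells, where 18.2% of 7398 genes were. With a limit of 2-fold between days, 2 pairs of a gene and a gate differed (*Col4a1* and *Col4a2* in *Aspn*-high cells). Without the filter on low levels 1 member, *Col4a5*, was called higher in *Col10a1*-high cells, where 9.05% of 20048 genes were. Of 224 alternative values for single members in *Rgs5*-high cells, 137 stayed within counting error, 87 moved, and 0 changed direction. The median log2 ratio of all genes in *Rgs5*-high cells moved from 0.15 and 0.21 to -0.24 and -0.21 with TMM factors. Across all alternatives the log2 ratio of *Col4a1* there stayed between 8.60 and 9.25 at day 10 and between 9.39 and 9.77 at day 14. Leaving out a replicate was not possible with 1 library per day. No paired analysis was possible because each day has 1 library. The *Rgs5* gate at day 10 held 73 cells, which limits the shares given for it, and the background cells of that day were 4.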

Other observations

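The 3 libraries held 377, 2141, and 3580 cells, in order of day, that had no *Ptprc* UMI and passed no gate. In these cells *Col6a1* was at 1287, 1760, and 1476 CPM, and *Col6a3* was at 1295, 1034, and 719 CPM. *Col4a1* was at 21.4, 38.4, and 17.4 CPM, and *Col8a1* was at 60.5, 152, and 127 CPM. At day 7, where no cell passed the *Rgs5* gate, the ungated cells had 1 *Rgs5* UMI in all. Cells that passed more than 1 gate had 35.2 CPM of *Col4a1* at day 10 and 259 CPM at day 14, where 17 of the 144 passed both the *Rgs5* and the *Aspn* gate.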
